A study of Mus musculus with 8 samples.

Results

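The subject is 2355 peaks of EHMT2 that lay in repeat sequence and were listed in control cells but not after EHMT2 was degraded. They came from a list of 11010 peaks obtained with the hemagglutinin (HA) antibody C29F4, which therefore holds them as 21.4% of its peaks. Each member overlapped, by at least 1 bp, a peak of a list made with another HA antibody, ab9110, from DMSO-treated cells, and overlapped no ab9110 peak from dTAG-treated cells. Each also had at least 50% of its bases soft-masked, that is, written in lower case as repeats in the mm10 reference. The members were thus chosen by measured peak calls in DMSO and dTAG and by their repeat share, and the absence from the dTAG list is how they were picked, not a result. They are called dTAG-sensitive repeat peaks below.

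All cells were EHMT2-dTAG mouse embryonic stem cells (mESCs), derived from KH2 cells, a C57BL/6J x 129S1 F1 line. Both alleles of Ehmt2 carry a degron, an HA tag and an mCherry reporter, so the DMSO controls also carry the tag. They were collected after 24 h in DMSO or in the degrader dTAG. With C29F4, 2 ChIP samples from DMSO-treated cells were merged by the authors into 1 list, and with ab9110 there was 1 ChIP list from DMSO and 1 from dTAG, besides 1 input list from dTAG-treated cells. Input is chromatin sequenced without pulldown. Since each condition had 1 list, no difference between DMSO and dTAG was tested, and the 95% intervals given are exact (Clopper-Pearson) binomial intervals for counting error only. Peaks are not independent samples. Reads that matched several places equally well were put at 1 of them by the authors, so which of several near-identical copies was bound is uncertain, and the reference is C57BL/6J alone.

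EHMT2, also called G9a, works with EHMT1 to place mono- and dimethyl groups on lysine 9 of histone H3, a mark of silent chromatin. It is not known to read a DNA sequence itself and is brought to chromatin by partners such as the zinc finger protein WIZ. Interspersed repeats are copies of mobile elements. The long interspersed elements of the mouse, LINE-1 (L1), begin with a row of tandem promoter units, continue with open reading frames, the longest of which encodes a reverse transcriptase, and end in an A-rich tail. Most copies are cut short at the front, so a copy that keeps its front units is close to full length. The mask of the reference used here names no repeat class, so runs of masked sequence are described below by what a script read in them and are given no class name.

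The sequences that dTAG-sensitive repeat peaks had in common are shown first, because the results below differ between the peaks that hold them. Words of 30 bases were taken one after another, each the word present in the most members not yet covered. They are printed as read inward from the end of the masked run nearest to the summit, with CG dinucleotides in capitals, since CG is the site of DNA methylation in mammals. Both strands were searched.
word 1: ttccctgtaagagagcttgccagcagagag
word 2: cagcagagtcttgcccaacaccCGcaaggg
word 3: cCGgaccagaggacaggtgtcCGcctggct
word 4: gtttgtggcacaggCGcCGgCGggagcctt

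Word 1 was in 799 members (33.9%), word 2 in 287 (12.2%), word 3 in 293 (12.4%) and word 4 in 54 (2.29%). Word 1 has no CG, whereas words 2, 3 and 4 have at least 1. The words occurred at 3648, 6455, 2058 and 1251 places in mm10. Of 32851 RefSeq promoters (mm10, 250 bases before to 50 after the start), 0, 4, 2 and 2 held them. In long masked runs (defined below), word 1 was found in the runs of 902 members and was repeated in 0.665% of them, at a median of 629 bp from the run end. Word 2 was repeated in 97.7% of the 263 runs that held it, with a median of 4 copies and up to 33, and its nearest copy lay 57 bp from the summit at the median. Word 4 was repeated in 95.3% of 64 runs and word 3 in 61.2% of 255. Word 1, in contrast, lay a median of 253 bp from the summit, in sequence that nearly always occurred 1 time per run. Together 8 such words covered 1468 members (62.3%). The words were chosen after seeing the data, from the members themselves, so their frequency there is a description.

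Depth differed between the ab9110 lists. The genome-wide mean coverage by fragments was taken as the lowest background recovered, from fold and p-value, at any summit of a list. This estimate came to 3.64 with C29F4. It was 2.11 in the ab9110 list from DMSO and 1.23 in that from dTAG, which is 58.2% of the former. In the C29F4 list, 46.1% of peaks overlapped a DMSO and no dTAG peak and 21.7% overlapped a dTAG peak, and 45.1% were at least 50% soft-masked. The member nearest to the repeat limit was 50.00% masked, and the nearest dTAG-sensitive peak outside it 49.93%. Within 5 percentage points of the limit lay 132 members on the inner side and 112 peaks on the outer. The median member was 87.6% masked and 678 members (28.8%) wholly. The overlap with the DMSO peak covered a median 85.6% of the member. It was under 50 bp in 33 members and 1 bp in the smallest case. On the other side, 79 members (3.35%) had a dTAG peak within 1 kb that did not touch them, the nearest at 10 bp.

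The members had a median fold enrichment over background of 3.99 at the C29F4 summit (quartiles 3.15 and 5.61, range 1.87 to 18.8). The fold of the ab9110 DMSO peak they overlapped had a median of 4.56 (quartiles 3.50 and 6.44). Across the 2355 members, which share both libraries, the folds of the 2 antibodies had a Spearman rho of 0.52, and in the 2724 dTAG-sensitive peaks in unique sequence the rho was 0.24. The DMSO folds of those unique peaks had closer quartiles, 3.26 and 5.14, and the part of this spread in the rho was not tested. Summits of the antibodies lay a median of 116 bp apart. A member was 697 bp wide at the median. A dTAG input peak, the background made by the same caller, overlapped 46 members (1.95%, 1.43 to 2.60%), against 0.981% of all C29F4 peaks and 0.404% of the unique dTAG-sensitive peaks (0.202 to 0.721%). Repeat peaks of both ab9110 lists had 2.45% (1.70 to 3.41%), with an interval that overlapped that of members, and those of neither list 0.840% (0.404 to 1.54%). Without the 46 members, the share in long runs described below was 54.6% in place of 55.1%.

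By fold, the strongest member lay on chromosome X, 6857 bp from the antisense gene Gm14707, at chrX:76236442-76237438 (mm10), with a fold of 18.8 for C29F4 and 11.8 for ab9110 DMSO. Next came chr3:6849429-6851103, far from any gene (98000 bp from the pseudogene Olfr289-ps1), with 16.5 and 12.4. An intron of Aoah, which encodes an enzyme that inactivates bacterial lipopolysaccharide, held the third at chr13:20860327-20862005 (16 and 10.3). The fourth to seventh lay near Nlrp4a, Gm9315, Ces5a and AC127274.3, with C29F4 folds of 14, 13.9, 13.8 and 13.8, and all of them sat outside long masked runs. Further members of the top 10, near Gm28801 (13.7) and Gm39336 (13.3), sat in runs of 6563 and 6699 bp. Of the top 10 members, 5 were in long runs and held word 1. In the fourth to seventh no 100-base word occurred at more than 40 places in mm10. The second had its summit in a run of 161 bp but held words found at up to 3161 places.

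Much of the sequence of the members occurs at several places in the genome. The share of a peak's 100-base words that occur at 1 place in mm10 had a median of 51.3% in members (quartiles 19.8 and 100%) and 100% in unique dTAG-sensitive peaks. All words were at 1 place in 597 members (25.4%, 23.6 to 27.2%) and none in 299 (12.7%, 11.4 to 14.1%). In 1404 members (59.6%) at least 1 word occurred at 100 or more places. Repeat peaks that stayed in both ab9110 lists were less unique by this measure, with a median of 30.5% and all words at 1 place in 14.6% (12.7 to 16.5%). Repeat peaks in neither ab9110 list had a median of 86.2%. There all words were at 1 place in 39.5% (36.7 to 42.3%). Members thus lay between these classes, with no overlap of the intervals. They also lay between them in median width, at 697 bp, against 1467 bp in repeat peaks of both lists and 375 bp in those of neither. A wider peak has more words that must all be at 1 place, and the part of width was not tested.

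**Figure D1:**
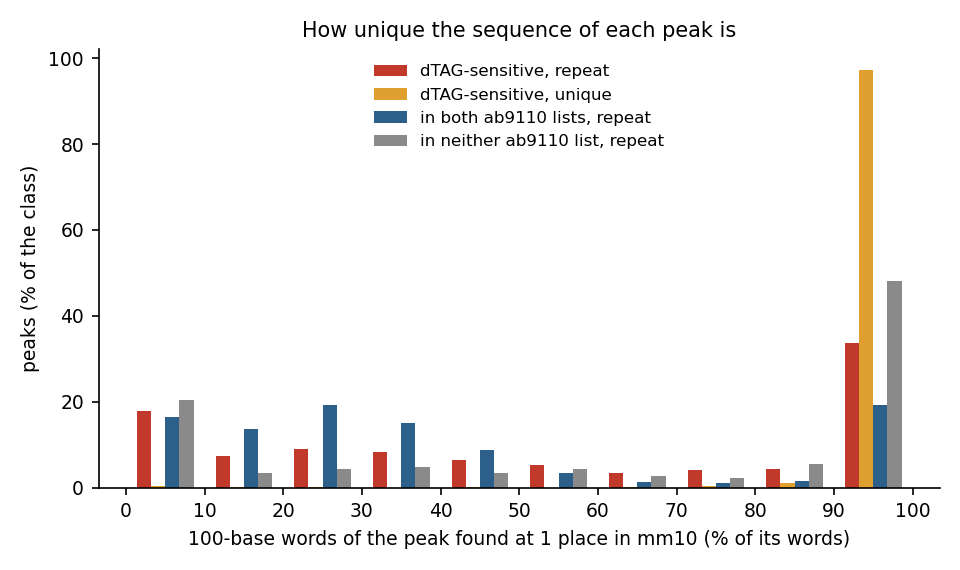
Share of the 100-base words of a peak that occur at 1 place in mm10 (x axis, %, bins of 10) against the share of peaks of the class (y axis, %), for dTAG-sensitive repeat peaks (n = 2355), dTAG-sensitive unique peaks (n = 2724), repeat peaks in both ab9110 lists (n = 1388) and repeat peaks in neither (n = 1190). The members spread over the whole axis, with 17.9% in the lowest bin and 33.7% in the highest, where 97.2% of the unique peaks sit.

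The summit lay in a masked run of at least 5 kb in 1298 members (55.1%, 53.1 to 57.1%), against 25.1% of all C29F4 peaks. The share was 0.624% in unique dTAG-sensitive peaks (0.364 to 0.997%), 72.8% in repeat peaks of both ab9110 lists (70.4 to 75.2%) and 35.3% in repeat peaks of neither (32.6 to 38.1%). The rule fixed the masking, so the gap to unique peaks follows in part from the choice, whereas the repeat classes had the same limit. The runs had a median length of 6651 bp (quartiles 6439 and 6986). They numbered 1275, of which 1252 held 1 member and 23 held 2. Among members, those in long runs had a median GC content of 53.7% and an observed-to-expected CpG ratio of 0.460. Those in runs under 500 bp had 44.5% and 0.174.

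Summits lay near 1 end of these runs. The median distance to the nearest end was 398 bp (quartiles 244 and 591), and 1185 of 1298 summits were within 1 kb of it (91.3%, 89.6 to 92.8%). Repeat peaks in both ab9110 lists were at a median of 516 bp, with 86.3% within 1 kb (84.0 to 88.3%). Repeat peaks in neither list were spread inward, at a median of 1340 bp with 42.6% within 1 kb (37.8 to 47.5%).

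**Figure D2:**
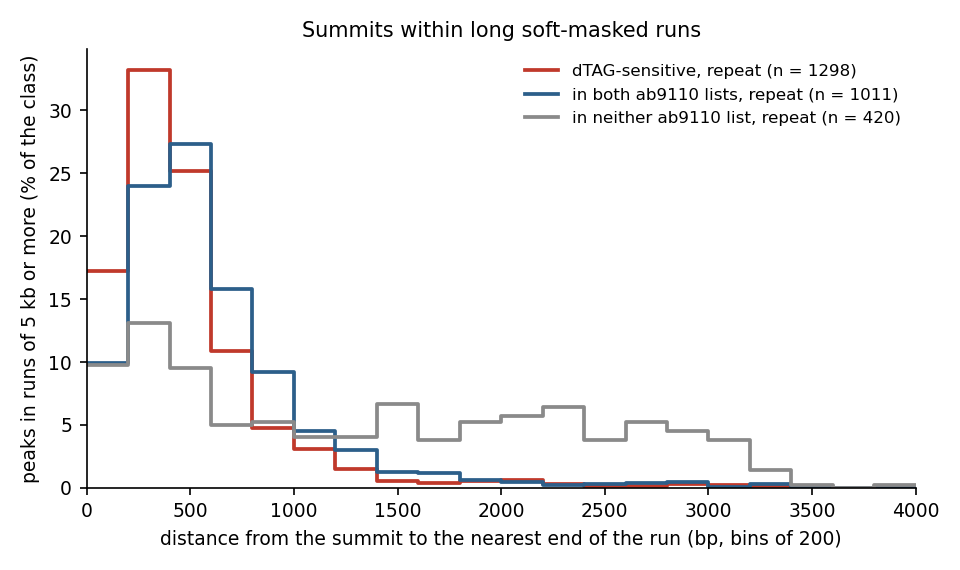
Distance from the C29F4 summit to the nearest end of its soft-masked run of 5 kb or more (x axis, bp, bins of 200) against the share of peaks of the class (y axis, %). The dTAG-sensitive repeat peaks are highest at 200 to 400 bp (33.2%), those in both ab9110 lists at 400 to 600 bp (27.3%), and those in neither list run on to beyond 2000 bp.

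The runs also had a direction. Read inward from the end nearest to the summit, the longest stretch of codons without a stop had a median of 1300 codons, against 183 in the opposite direction, and the inward frame was the longer for 1291 of 1298 members (99.5%). A frame of at least 1000 codons was present in 928 (71.5%, 69.0 to 73.9%). Repeat peaks of both ab9110 lists had it in 85.5% (83.1 to 87.6%) and those of neither list in 45.5% (40.6 to 50.4%). The far 200 bases held an A-rich stretch, at least 15 A in 20 bases, for 1191 members (91.8%, 90.1 to 93.2%), and the near end held the matching T-rich stretch in 30 (2.31%). Inside genes, the runs of 162 of 380 members read the same way as the gene (42.6%, 37.6 to 47.8%), and the others against it.

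The members differed in the tandem units at that end. A unit was called where at least 30 words of 12 bases recurred at 1 spacing between 100 and 400 bases in the 2000 bases from the end. Among the 1298 members in long runs, 459 had a spacing of 212 bases (35.4%), 249 of 208 (19.2%), 240 of 214 (18.5%) and 62 of 204 to 206 (4.78%). Another spacing was found in 38, and none in 250. These classes were formed after seeing the data, from the 6 commonest spacings at all C29F4 summits in long runs, with neighbouring spacings joined. In repeat peaks that stayed in both ab9110 lists the spacing was 212 in 848 of 1011 (83.9%) and 208 in 8 (0.791%). Word 1 was the covering word of 427 members with units of 212, word 2 of 243 with units of 208, and word 4 of 49 with units of 204 to 206. Of the 121 members in long runs covered by word 3, 83.5% had units of 214.

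Tandem units were also read in every masked run of at least 5 kb in mm10, with or without a peak. Here the reading began at the start of the longest open frame, not at the end nearest to a summit, so the counts by class differ slightly from those above. The spacing of a run does not depend on the ChIP data, but which spacings form a class does. Spacings of 201 and 199, found in 422 and 218 runs, are among the others because few C29F4 summits (23 and 8) lay in such runs. Long runs numbered 14481 in all, and 1275 held a member (8.80%, 8.35 to 9.28%). The total includes 3224 runs on chromosome Y, where 0 held a member, and the unit classes were not split by chromosome. Of the 1553 runs with units of 212, 29% held a member (26.7 to 31.3%) and 54.3% a repeat peak of both ab9110 lists (51.8 to 56.8%). For units of 214 these shares were 35.8% (32.1 to 39.6%) and 5.95% (4.26 to 8.04%) of 656 runs. For units of 208 they were 17.9% (15.9 to 20.1%) and 0.596% (0.258 to 1.17%) of 1343. For units of 204 to 206 they were 15.8% (12.3 to 19.9%) and 8.16% (5.61 to 11.4%) of 380. Runs without a tandem unit, 9596 in number, held a member in 2.63% (2.32 to 2.97%). By shares of members, 214 was above 212 and both were above 208, with separate intervals, while 208 and 204 to 206 overlapped. Peaks with a dTAG call are not members by the rule, so this order depends on the rule and is a description. By any C29F4 peak summit, whatever its dTAG call, the order of 212 and 214 was reversed. Such a summit was present in 83.6% of the runs with units of 212 (81.6 to 85.4%), 49.7% of those with 214 (45.8 to 53.6%) and 26.0% of those with 208 (23.7 to 28.4%). In runs with an open frame of at least 1000 codons, members were in 28.3% of the 212 class, 41.8% of the 214 class and 19.5% of the 208 class.

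**Figure D3:**
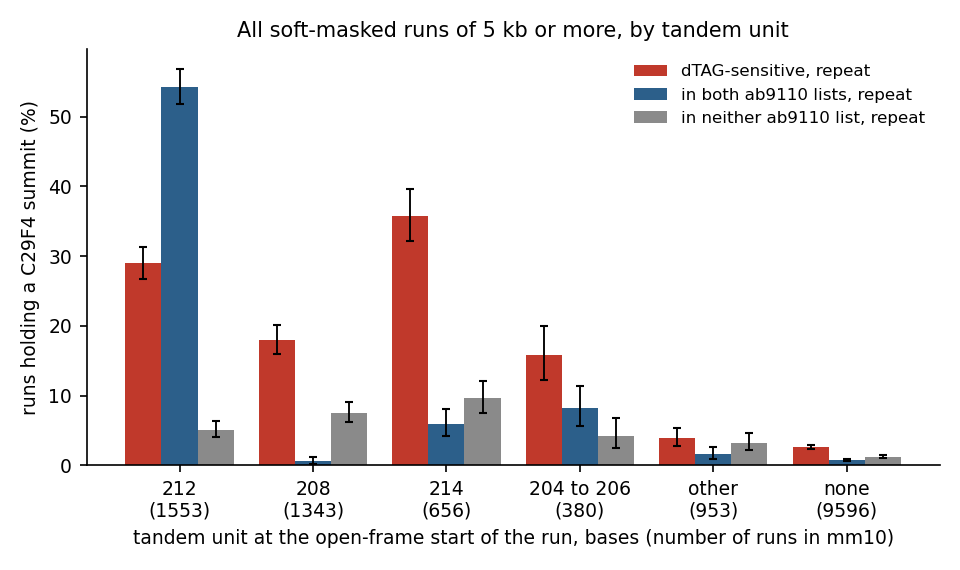
All soft-masked runs of 5 kb or more in mm10 by the tandem unit at the start of their longest open frame (x axis, with the number of runs in brackets), and the share that holds a C29F4 summit of each class (y axis, %; bars with exact 95% intervals for counting error). Runs with units of 212 hold peaks of both ab9110 lists more often (54.3%) than dTAG-sensitive peaks (29%), and the reverse is seen for 214 (5.95% and 35.8%) and 208 (0.596% and 17.9%).

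The signal at the members differed between the unit classes. With units of 212 the median C29F4 fold was 6.65 (quartiles 5.17 and 8.36), with 214 it was 3.66 (2.83 and 4.63), with 208 it was 3.21 (2.7 and 3.86) and with 204 to 206 it was 2.79 (2.5 and 3.24). The ab9110 DMSO fold gave medians of 7.83, 3.92, 3.42 and 3.75. The medians of members with 212 units were the highest with both antibodies. Their quartiles did not overlap those of the other 3 unit classes, which overlapped each other, but did overlap those of members in long runs without a unit (C29F4 median 4.31, quartiles 3.36 and 5.97). The 212 members were also wider, at a median of 1482 bp, against 583 bp for 208. In contrast, GC content was highest with 208, at a median of 62.2% against 51.6% with 212, and the CpG ratio was 0.609 against 0.451. The 212 peaks that stayed in both lists were close to the 212 members in fold, at a median of 7.14 (quartiles 5.67 and 8.59). They had more tandem seed matches, with a median of 310 (177 and 479) against 199 (138 and 334) in members.

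**Figure D4:**
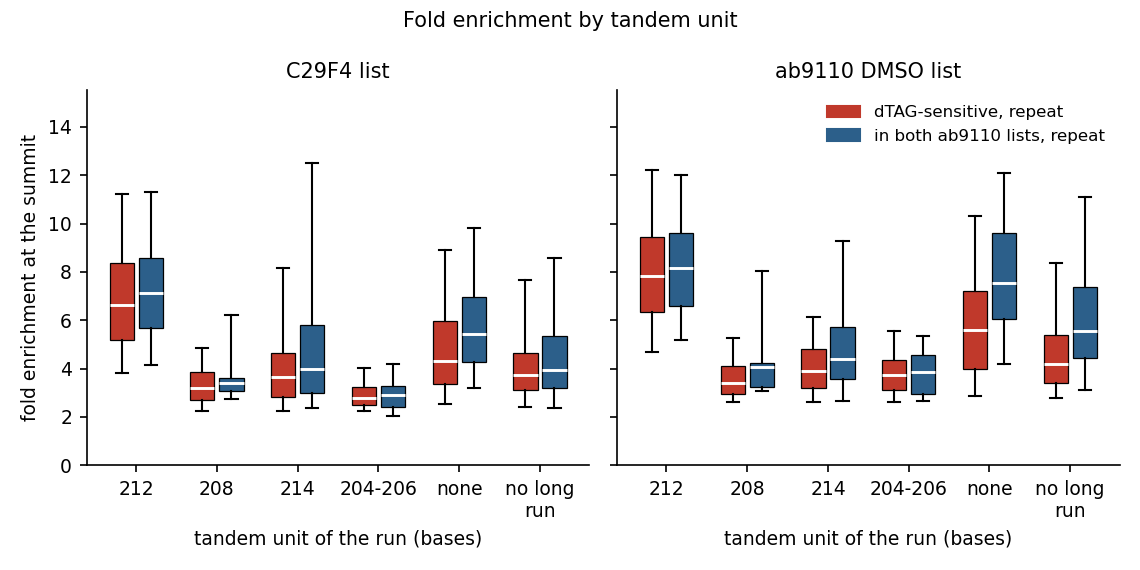
Fold enrichment at the summit (y axis) in the C29F4 list (left) and the ab9110 DMSO list (right) by tandem unit of the run (x axis), for dTAG-sensitive repeat peaks and repeat peaks of both ab9110 lists. Boxes give the quartiles with the median as a white line and whiskers the 5th and 95th percentiles over peaks, and the 212 medians (6.65 and 7.14 for C29F4) lie above those of 214, 208 and 204 to 206, while the box of the 212 members overlaps that of the retained 214 peaks in the C29F4 list.

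How many members would have been missed after dTAG from shallower sequencing alone was estimated from the fragments at each DMSO summit. The DMSO pileup had a median of 22 fragments, and a median of 11 was needed to be called at the dTAG coverage. Thinned to that coverage, 1701 of the 2355 members were expected to be called (72.2%), with 1718 more likely than not to be called and 111 with a chance under 10%. For unique dTAG-sensitive peaks the expected share was 61.0%. None of the members was called, by their choice, so the share was read over all repeat peaks that overlap the DMSO list, members and those of both lists together. Of these, with 212 units, 64.9% overlapped a dTAG peak (62.2 to 67.5%, n = 1307), where 99.8% was expected from coverage. With 214 units it was 14.6% (10.7 to 19.3%, n = 281) against 68.9%. With 208 units it was 3.11% (1.35 to 6.04%, n = 257) against 50.8%, and with 204 to 206 it was 33.3% (23.9 to 43.9%, n = 93) against 68.1%. Outside long runs it was 26.3% (24.0 to 28.7%, n = 1434) against 70.7%. The share that stayed was largest in the class with units of 212. DMSO fragments and unit class moved together, with a median of 49 fragments in 212 members and 18 in 208 members. The expectation rests on 1 library per condition and on DMSO pileups of peaks already chosen for being called in DMSO, and the part of coverage in the missing calls was not tested.

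**Figure D5:**
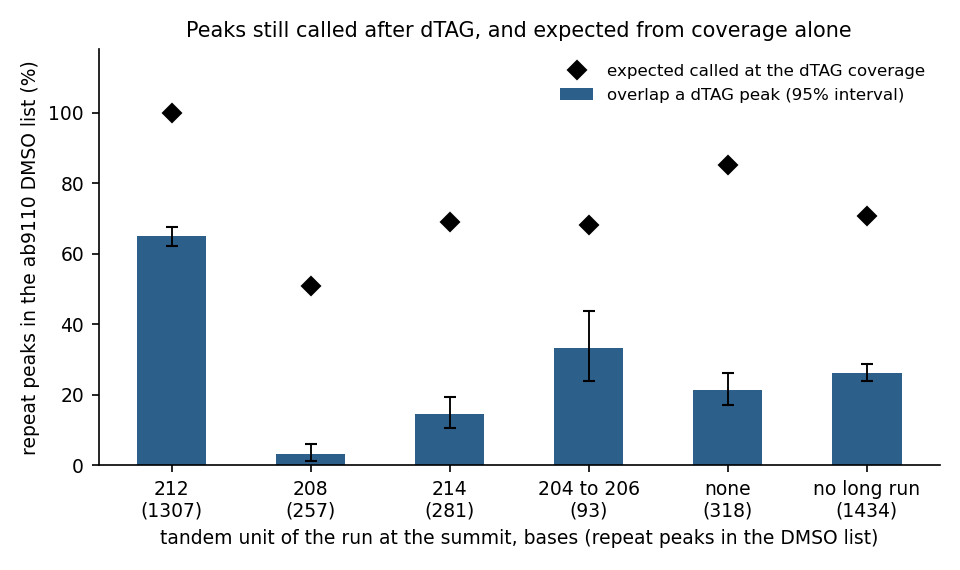
Repeat peaks of the C29F4 list that overlap an ab9110 DMSO peak, by the tandem unit of their run (x axis, number of peaks in brackets), and the share that also overlaps an ab9110 dTAG peak (y axis, %; bars with exact 95% intervals). Diamonds mark the share expected to be called if the DMSO fragments are thinned to the dTAG coverage, and each bar ends below its diamond, at 64.9% under 99.8% for units of 212 and 3.11% under 50.8% for units of 208.

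Peaks were also sorted by the fold of the DMSO peak, with the quartiles of the members as limits. In the lowest group, up to a fold of 3.50, 10.9% of all repeat peaks of that strength stayed after dTAG (8.62 to 13.5%), where 29.4% was expected from coverage. In the highest, above 6.44, 59.6% stayed (57 to 62.1%) where nearly all were expected. Unique peaks in the same groups stayed in 14.1% (12.1 to 16.4%) and 46.2% (42 to 50.5%). The intervals of repeat and unique peaks were thus separate in the top group only, and they overlapped in every lower group. The masked share and the dTAG call both belong to the rule for members, so this is a description. The top group has no upper limit, and repeat peaks of both ab9110 lists were wider at the median than unique ones. The part of fold within the group and of width was not tested. In that top group 77.0% of members were in long runs, against 50.6% in the lowest.

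Sequence families drawn by alignment gave 1 very large group. With at least 80% identity over 50% of the shorter peak, 2114 members (89.8%, 88.5 to 91.0%) fell in 6 families, and 2058 (87.4%) were in the largest. Families were groups connected through such links, so 2 members of a family need not match each other. The commonest word of the largest was word 1, in 799 of the 2058, and 1297 of them had the summit in a long run. The second family had 31 members, none in a long run, and a median CpG ratio of 0.685. Its commonest word, in 12 of the 31 and in 2 promoters, was the following, with CG in capitals and printed from 1 of its strands.
family 2: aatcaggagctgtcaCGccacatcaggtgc
The strongest of these 31 lay at chr17:4683165-4683777, 5307 bp from the snRNA gene Gm23186, with folds of 7.42 and 5.62. In the families of 9, 6, 5 and 5 members no word was shared by more than 4, and none is shown. Their strongest members were near Gm45686 (fold 4.28), near Gm11662 (6.25), in Sult2a3 (6.90), a gene of the sulfotransferase family, and in D130009I18Rik (5.08). At 90% identity over 80% of the shorter peak, 1662 members (70.6%) fell in 14 families and the largest held 1502.

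A small family at the stricter setting had high folds. It had 15 members on 8 chromosomes, none in a long run, with a median C29F4 fold of 11.2 (3.8 to 13.8) and a median DMSO fold of 7.03 (2.76 to 10.9). The median of all members was 3.99. This family was singled out after its values were seen, and all 15 members are in the largest family of the looser setting. Copies were few, so the peaks were largely placeable, with a median of 82.2% of words at 1 place and no word at more than 40 places. From the summits of its 3 strongest members, 100 bases are printed because they show a short unit in a row, with CG in capitals (mm10, plus strand). They come from chr8:93469809-93469908 near Ces5a, chr17:39129250-39129349 near AC127274.3 and chr2:39806894-39806993 near Gm43970.
Ces5a: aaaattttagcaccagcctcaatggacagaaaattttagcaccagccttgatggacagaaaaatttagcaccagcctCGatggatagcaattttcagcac
AC127274.3: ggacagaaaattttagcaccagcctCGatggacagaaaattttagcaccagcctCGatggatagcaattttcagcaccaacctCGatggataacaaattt
Gm43970: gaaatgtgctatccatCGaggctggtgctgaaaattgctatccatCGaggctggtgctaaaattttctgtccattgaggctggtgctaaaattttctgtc

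The third is the same kind of unit on the opposite strand. A spacing of 29 bases was the commonest in the family and was found, at 80% identity or more within 100 bases of the summit, in 3 of the 15. All 15 shared the 20-base word accagcctCGatggacaaaa, which lies outside the printed stretches, and 6 other members held it too. Of those, 5 belong to a family of 8 whose strongest member, near the NLR gene Nlrp4a, had a fold of 14. The word occurred at 30 places in mm10 and in 0 of 32851 promoters. Of those places 21 were in members and 1 in a repeat peak of both ab9110 lists, and no unique dTAG-sensitive peak held it. The 21 members had a median C29F4 fold of 11.2. All 22 C29F4 peaks with the word overlapped a DMSO peak. Since the word was picked from members, which have no dTAG peak by choice, its frequency in them and the calls of its holders are a description.

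The words were then counted in all C29F4 peaks. Word 1 was in 1785 peaks, of which 799 were dTAG-sensitive (44.8%) and 961 in both ab9110 lists (53.8%). Of all C29F4 peaks, 46.1% were dTAG-sensitive and 21.7% overlapped a dTAG peak. The dTAG-sensitive share of word 1 was thus near that of all peaks. Word 2 was in 388 peaks, of which 294 (75.8%) were dTAG-sensitive and 8 (2.06%) in both lists. Word 3 was in 384, of which 76.8% were dTAG-sensitive and 10.9% in both, and word 4 in 98, with 59.2% and 31.6%. By class, word 1 was in 33.9% of members (32.0 to 35.9%), 69.2% of repeat peaks in both lists (66.7 to 71.6%), 2.02% of repeat peaks in neither (1.30 to 2.99%) and 0 of 2724 unique dTAG-sensitive peaks. Word 2 was in 0.576% of repeat peaks in both lists (0.249 to 1.13%) and 6.89% of those in neither (5.52 to 8.48%). Its share in members was 12.2% (10.9 to 13.6%). A word counted only inside the called peak, and the median width was 697 bp in members, 1467 bp in repeat peaks of both lists and 375 bp in those of neither. Word 1 was in the long runs of 902 members but inside the peak in 742 of them. The words were picked as those present in most members. A higher share in members, or of dTAG-sensitive peaks among the holders, thus follows in part from that choice. The share of all places in mm10 that fell inside a member was 21.9% for word 1, 10.9% for word 2, 22.2% for word 3 and 9.19% for word 4. Along the members' own C29F4 folds, word 1 covered 10.9% of the members below the first quartile (8.52 to 13.7%) and 74.0% of those above the top quartile (70.3 to 77.5%). Word 2 went the other way, from 22.3% (19 to 25.9%) to 0.679% (0.185 to 1.73%). The median width of these members rose as well, from 456 bp below the first quartile to 1301 bp above the top quartile. A wider peak reaches more of its run, and the part of width in the share of word 1 was not tested.

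The other 1057 members had their summit outside long runs. Of these, 648 had the summit in a run under 500 bp, 120 in one of 500 bp to 2 kb and 70 in one of 2 to 5 kb, and in 219 the summit base itself was not masked. Runs under 500 bp came with a median fold of 3.67 (quartiles 3.09 and 4.61), where long runs had 4.36 (3.17 and 6.55). All 100-base words were at 1 place in the median member of this kind. A further shared word, found in 40 members and present 509 times in mm10 and in 3 promoters, marked a set in short runs with a median run of 130 bp and a median fold of 3.79.
word 7: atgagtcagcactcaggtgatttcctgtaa
One of its 40 members was in a long run, and none was on chromosome X. It was also in 13 of the 2724 unique dTAG-sensitive peaks (0.477%, 0.254 to 0.815%), 5 repeat peaks of both lists (0.360%, 0.117 to 0.839%) and 9 of neither (0.756%, 0.346 to 1.43%), where the members had 1.70% (1.22 to 2.31%). Word 7 was picked from the members too, so their higher share follows in part from that choice.

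Intergenic sequence held 1670 (70.9%, 69.0 to 72.7%), introns 667 (28.3%) and exons 18 (0.764%). Repeat peaks of neither ab9110 list were intergenic in the same share (70.9%, 68.3 to 73.5%), those of both lists in 67.6% (65.0 to 70.0%), and all C29F4 peaks in 60.9%. Unique dTAG-sensitive peaks were intergenic in 54.4% (52.5 to 56.3%) and exonic in 6.02% (5.16 to 6.98%). Within 1 kb of a transcription start lay 55 members (2.34%, 1.76 to 3.03%), against 7.19% of all C29F4 peaks and 10.5% of unique dTAG-sensitive peaks (9.41 to 11.7%). The median distance to a start was 27420 bp for members and 15032 bp for unique peaks. Repeat peaks of both ab9110 lists (2.02%, 1.34 to 2.90%) and of neither (2.18%, 1.43 to 3.19%) had shares near starts whose intervals overlapped that of members. The nearest start belonged to a protein-coding gene in 19 of the 55, to a processed pseudogene in 13 and to a lincRNA in 11.

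Of the 19 near protein-coding starts, the strongest was at chr7:6947840-6948763 in Usp29, an imprinted gene for a ubiquitin-specific protease, with folds of 7.31 (C29F4) and 4.35 (ab9110 DMSO), 930 bp from the start. Reg2, a C-type lectin gene of the pancreas, came next with 7.28 and 8.64, at 631 bp from the start in a run of 7101 bp with units of 212. Amph, for the endocytic adaptor amphiphysin, had 6.25 and 3.20 in a run with units of 214. Dennd1b, a regulator of Rab GTPases, had 6.18 and 12.5, and Lipo3, of the acid lipase family, 5.57 and 8.84, both in runs with units of 212. Aim2, the cytosolic sensor of double-stranded DNA, had 5.43 and 3.05 at 172 bp from the start, but a DMSO pileup of 11 fragments where 9 were needed after dTAG gave it a 9.71% chance of being called. Dnajc13, which acts in endosomal sorting, had 5.35 and 5.83, with no 100-base word at 1 place. Mfsd4b5, a transporter gene, had 4.48 and 5.97. Clvs2, a clathrin-associated protein gene, had 4.12 and 8.37, and Actl6a, a subunit of BAF chromatin remodellers, 4.08 and 5.36. Of these 10, 5 were in long runs and 5 were not.

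By chromosome, the most members were on chromosome 1 (239, 10.1%) and the fewest among autosomes on chromosome 19 (35). Chromosome X had 188 (7.98%, 6.92 to 9.15%), against 47 of the unique dTAG-sensitive peaks (1.73%, 1.27 to 2.29%) and 4.20% of all C29F4 peaks. Repeat peaks of both ab9110 lists had 9.29% there (7.82 to 10.9%), with an interval that overlapped that of members, and those of neither list 4.62% (3.50 to 5.97%). Chromosome X is the most masked chromosome after Y, at 44.7% of bases. Per masked Mb it had 2.46 members, within the range of the autosomes, which ran from 1.94 on chromosome 19 to 3.6 on chromosome 1. Among long runs, 12.2% of those on X (10.3 to 14.3%) held a member and 14.7% of those on chromosome 1 (12.5 to 17.2%). Chromosome Y had 3224 long runs, and 0 held a member, with an exact upper bound of 0.114%. Its 1 member was outside them. Windows of 1 Mb with a member numbered 1337, with 1 member at the median and at most 8. The densest was chrX:72000001-73000000, which includes Magea4 and Magea10. A window with 7 lay at chr5:18000001-19000000, around Gnat3 and Gnai1.

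Gene lists for this tissue were compared with all protein-coding genes, of which 1622 of 21938 had a member within 50 kb of the gene body (7.39%, 7.05 to 7.75%). Of 32 annotated genes of the 2-cell stage, when the embryonic genome is switched on, 1 had a member so near (3.12%, 0.0791 to 16.2%). It was Tcstv3, a member of a 2-cell gene cluster, 26196 bp from a peak with folds of 5.78 and 9.22 in a run of 6687 bp. Of 21 genes for H3K9 methylation and repeat silencing, 0 did, which allows up to 16.1% at the upper bound of the interval. Among 17 germline genes 3 did (17.6%, 3.8 to 43.4%). They were Tex11, needed in meiosis, with a member of fold 8.93 in its body, Stk31, a Tudor-domain kinase gene of germ cells (5.39), and Magea4, of the MAGE family (4.31). Among 14 core pluripotency genes 3 did (21.4%, 4.66 to 50.8%), namely Prdm14, Tfcp2l1 and Zfp42, transcription factors of naive pluripotency, with folds of 5.93, 4.09 and 3.32 at 41932, 39584 and 45932 bp. Each of these 4 intervals includes the share of all protein-coding genes.

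For zinc finger genes named Zfp with a number, whose KRAB-bearing members silence repeats, 38 of 365 had a member within 50 kb (10.4%, 7.47 to 14%), with a lower bound above the 7.39% of all genes. Unique dTAG-sensitive peaks lay as near to 17.3% of these genes, against 12.5% of all protein-coding genes, so a higher share was not particular to repeat peaks. The genes are clustered, and 1 peak can serve several of them, so the count is not of independent genes. Zfp229 and Zfp820 shared the member at chr17:21801097-21802066 (12.7 and 7.07), and Zfp773 and Zfp954 that at chr7:7080566-7081646 (12.6 and 7.03). Both peaks belong to the family of 15 with the 20-base word. Within 10 kb the share was 3.01% (1.51 to 5.33%) against 2.95% for all protein-coding genes, and within 200 kb it was 27.7% (23.1 to 32.6%) against 20.7%.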

How the data were processed

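HA ChIP-seq peak lists from EHMT2-dTAG mESCs were analysed. The authors aligned reads to mm10 with STAR 2.7.10, which put a multimapping read at 1 location, removed duplicates with Picard 2.26.0 and called peaks with MACS2 2.2.6, keeping q-values under 0.05. The calling parameters they list name no control library. Fold enrichment as deposited is a ratio, pileup over background at the summit, and the deposited −log10 p-value and q-value refer to the same base. Separate C29F4 replicate lists and DMSO inputs were not analysed here.

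Peaks counted as shared between lists when they overlapped by 1 bp or more (checked against bedtools 2.31.1). Fragment pileups were recovered from fold and p-value, and thinned binomially to 58.2% against a lowest −log10 p of 4.28. The 58.2% is the lowest recovered background of the dTAG list relative to that of the DMSO list. The soft mask was that of GRCm38 as held by RefSeq, genes from GENCODE M21, families from BLAST+ 2.17.0, and words were counted on both strands of 66 sequences. Scripts ran in Python 3.11.15 and were tested on simulated data. Members and gene lists were chosen with earlier results of these data known. Named members were the 10 of highest C29F4 fold, the strongest of each family, the 10 strongest near protein-coding starts and up to 4 genes per list. A member of the first group and a dense window are not reported here. The words taken in turn, the tandem unit classes and the family of 15 were chosen after seeing the data.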

Additional observations from a re-analysis of the deposited data

How the results depend on the processing

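Each list stands for 1 condition, so intervals cover counting error only and no call was tested. No paired analysis was possible because the ab9110 DMSO and dTAG lists share 1 replicate number, with 1 list each, and the results come from no test. The dTAG list had an estimated 58.2% of the DMSO coverage. The number of members stayed within 1.5 times 2355 under the alternatives listed next, between 1657 (75% masked) and 2754 (50% overlap). The share of dTAG-sensitive peaks in repeats was 46.4%, near the 45.1% of all C29F4 peaks, and the latter is not given for the other settings. The share of dTAG-sensitive peaks moved to 50.0% at q under 0.01, 54.7% at q under 0.001, 52.1% with 50% overlap, 32.6% with 75% masked, 50.3% by the summit base and 51.0% with DMSO peaks more likely than not called at the dTAG coverage. The long-run share (55.1%) moved in the same order to 59.5, 65.5, 62.5, 68.6, 51.5 and 59.6%, to 58.2% with summits within 250 bp and to 58.1% for runs of 2 kb. The share expected to be called (72.2%) moved to 81.3, 90.3, 80.5 and 89.5% under the q-values, the overlap and the DMSO coverage limit, and to 75% with summits within 250 bp. The median of words at 1 place (51.3%) moved to 43.7, 37.5, 39.6, 31.6, 60.6 and 43.8%, to 47.1% with summits within 250 bp and to 34.0% for 50-base words. Families at 90% identity held 70.6% in place of 89.8%, starts of protein-coding genes 0.807% in place of 2.34%, and genes of the lists with a member 2.90% within 10 kb and 26.7% within 200 kb in place of 10.0%. Without members on input peaks, the 7 results recomputed stayed within the limits used (share in long runs 54.6%). The cause of these moves was not tested. Further settings, chosen after seeing the data, kept the 597 members with every word at 1 place or the 1057 outside long runs. The former had 1.01% in long runs, 69.0% in intergenic sequence and 63.2% expected to be called, and the latter 64.8% expected to be called.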
